A study of Mus musculus with 11 samples.

Results

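H3K4me3 segments that carried neither H3K27 mark are described here, in a mouse T-cell leukaemia line. The members are the segments of the H3K4me3 library up to 10000 bp wide that overlapped no segment of either H3K27 library by 1 bp or more. There were 2220 of them among 26767 H3K4me3 segments (8.29%), and they covered 2211.2 kb of the 66307.4 kb under H3K4me3. They were chosen by measured values, the positions and widths of the segments in these 3 lists, so their H3K4me3 width and read count and their distance to H3K27 segments are given as descriptions. They are set against 21414 segments up to 10000 bp wide that overlapped the acetylation-like H3K27 list alone and 1877 that overlapped the Polycomb-like list alone. A further 1013 overlapped both lists, and 243 were over 10000 bp wide.

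The series profiled chromatin by immunoprecipitation and sequencing (ChIP-seq) in 8946 cells, a line of mouse T lymphoblastic leukaemia. Cells were transduced by retrovirus with epitope-tagged Zmiz1 on an NGFR-marked vector and activated Notch1 on a GFP-marked vector, and double-positive cells were sorted. The line with Flag-Zmiz1 and the L1601PDP form of Notch1 (the Flag line) gave 4 histone samples (labelled H3K4me3, H3K4me1, H3K27ac and H3K27me3), those of Rbpj, ICN1 and Flag-Zmiz1, and an input. The line with HA-Zmiz1 and the DEGFDLNRDP form (the HA line) gave HA-Zmiz1, ICN1 and input. Both lines thus carry added Zmiz1 and added Notch1, and the expression of both came from vectors. Each of the 11 samples was deposited as 1 library, with no separate replicate, so no replicate spread is known for any value below. The peak calls of the HA line record merged reads. Whether these came from more than 1 precipitation is not known. Intervals are exact (Clopper-Pearson, 95%), cover counting error only and take segments as independent. Since chromatin marks were profiled in the Flag line alone, peaks of the HA line are set against chromatin of the other line.

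The deposited list of the sample labelled H3K27me3 carries the name of the acetylation mark, and that of the sample labelled H3K27ac the name of the methylation mark. The list under the label H3K27me3 is called acetylation-like here and the list under the label H3K27ac Polycomb-like. Among 25 T-cell genes (receptor, coreceptor and other surface proteins), 14 had an acetylation-like H3K4me3 segment within 1000 bp of an end and 11 one over 10000 bp wide. Over all coding genes these shares were 39.7% and 1.01%. Those shares include the 49.7% of coding genes with no H3K4me3 segment there, while all 25 T-cell genes had one. Segments over 10000 bp were classed by width alone, so those 11 genes do not bear on the names of the H3K27 lists. Because the rule uses both lists in the same way, exchanging the names changes no member.

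H3K4me3 is laid down by the SET1 and MLL methyltransferase complexes and is strongest at promoters. H3K27 in the same nucleosomes can be acetylated by p300 and CBP, which is typical of active promoters and enhancers, or methylated by Polycomb repressive complex PRC2, which is typical of silenced developmental genes. H3K4me1 is the mark of enhancers and of the flanks of promoters. Rbpj binds DNA and recruits ICN1, the cleaved and active intracellular part of Notch1. Zmiz1 belongs to the PIAS-like family and acts as a coactivator of Notch1.

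Promoters of 6 coding genes whose start site lay in a member are printed here as examples that differ in CpG content. They run from 250 bases before the start site to 50 after it, 5′ to 3′ along the gene, from RefSeq (GRCm38.p6), and capitals mark CpG dinucleotides. Each was taken from members with at least 10 control reads. Ids and Xk had the highest folds on chromosome X, Zfp932 the highest among Zfp genes, and Gpt2 and Fam210b the highest among autosomal genes with an Rbpj peak and H3K4me1. Olfr371 had the lowest CpG content.
Ids, chrX:70365036-70365335, minus strand: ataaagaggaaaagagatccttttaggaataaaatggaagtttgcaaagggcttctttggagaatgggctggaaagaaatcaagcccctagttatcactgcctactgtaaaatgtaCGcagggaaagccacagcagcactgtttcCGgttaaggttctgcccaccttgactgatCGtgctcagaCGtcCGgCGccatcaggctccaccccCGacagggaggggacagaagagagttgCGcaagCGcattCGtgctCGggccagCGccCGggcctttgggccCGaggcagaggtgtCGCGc
Xk, chrX:9272534-9272833, plus strand: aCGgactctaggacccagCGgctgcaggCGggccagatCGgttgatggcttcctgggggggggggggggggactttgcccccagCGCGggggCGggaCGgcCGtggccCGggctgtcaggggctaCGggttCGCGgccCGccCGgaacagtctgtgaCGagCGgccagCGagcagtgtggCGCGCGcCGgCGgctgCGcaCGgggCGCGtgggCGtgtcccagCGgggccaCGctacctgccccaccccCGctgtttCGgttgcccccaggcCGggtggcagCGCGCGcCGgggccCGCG
Zfp932, chr5:109996260-109996559, plus strand: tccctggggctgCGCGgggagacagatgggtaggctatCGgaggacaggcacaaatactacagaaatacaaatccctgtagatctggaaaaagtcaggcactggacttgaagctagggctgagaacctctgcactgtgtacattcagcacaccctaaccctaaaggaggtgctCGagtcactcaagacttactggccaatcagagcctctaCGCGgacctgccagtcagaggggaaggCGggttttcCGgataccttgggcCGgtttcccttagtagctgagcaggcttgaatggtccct
Gpt2, chr8:85492326-85492625, plus strand: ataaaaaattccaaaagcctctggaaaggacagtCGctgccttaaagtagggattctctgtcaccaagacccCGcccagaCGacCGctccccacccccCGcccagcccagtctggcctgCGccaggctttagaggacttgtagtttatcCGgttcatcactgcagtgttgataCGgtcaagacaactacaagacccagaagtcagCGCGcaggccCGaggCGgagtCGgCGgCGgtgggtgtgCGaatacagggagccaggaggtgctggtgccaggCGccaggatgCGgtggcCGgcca
Fam210b, chr2:172345327-172345626, plus strand: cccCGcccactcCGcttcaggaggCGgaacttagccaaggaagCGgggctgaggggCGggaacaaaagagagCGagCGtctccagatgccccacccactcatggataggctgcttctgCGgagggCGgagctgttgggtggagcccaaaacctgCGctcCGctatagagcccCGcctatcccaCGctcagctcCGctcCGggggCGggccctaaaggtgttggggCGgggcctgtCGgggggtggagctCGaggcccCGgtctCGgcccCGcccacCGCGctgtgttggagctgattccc
Olfr371, chr8:85230247-85230546, plus strand: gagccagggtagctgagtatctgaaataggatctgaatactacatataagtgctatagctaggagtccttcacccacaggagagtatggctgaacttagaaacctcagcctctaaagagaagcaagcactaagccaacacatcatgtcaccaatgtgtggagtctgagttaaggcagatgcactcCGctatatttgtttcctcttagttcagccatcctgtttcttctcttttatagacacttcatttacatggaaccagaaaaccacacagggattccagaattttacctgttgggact

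The printed Xk promoter holds 39 CpG sites, at an observed/expected ratio of 0.869, and the Olfr371 promoter holds 1, at 0.0723. Ids has 16, Zfp932 9, Gpt2 19 and Fam210b 24 CpG sites. The summit of the Rbpj peak in the Gpt2 member lay 3 bases before the start site and that in the Fam210b member 115 bases before it.

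The members were narrow and thinly covered. Their widths ran from 200 to 5200 bp with a median of 1000 bp (quartiles 600 and 1200 bp), against medians of 2200 bp for acetylation-like and 1200 bp for Polycomb-like segments. A member held a median of 41 H3K4me3 reads (quartiles 29 and 63), against 195 reads in acetylation-like and 74 in Polycomb-like segments. The deposited fold over the control, scaled for library totals, had a median of 3.07 in members (95% interval of the median 3.0 to 3.19), against 4.60 and 4.81. Control reads per kb were close in all 3 classes, with medians of 23.5 in members, 27.5 in acetylation-like and 21.4 in Polycomb-like segments. Fold reached 10 in 121 members (5.45%), and 76 members held more than 200 reads.

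The share of H3K4me3 segments that lacked both H3K27 segments was lower at higher read counts. It was 38.3% (352 of 918, 95% interval 35.2 to 41.6) at 15 to 25 reads, 21.7% (1065 of 4897) at 26 to 50 and 10.7% (546 of 5080) at 51 to 100. Above that it was 4.85% (181 of 3729) at 101 to 200 reads, 2.28% (65 of 2850) at 201 to 400 and 0.122% (11 of 9050, interval 0.0607 to 0.217) above 400. Successive intervals did not overlap. The share was also lower in wider segments, from 38.4% (608 of 1583) at 200 to 600 bp to 0.373% (46 of 12318) at 2200 to 10000 bp. Membership rests on overlap, and a wider segment has more bases that can overlap an H3K27 segment. The shares by read count and their intervals are therefore descriptions, and the part of width in them was not tested. The shallowest segment that either H3K27 list contains held 16 reads in the acetylation-like library and 26 in the Polycomb-like one, so weak H3K27 signal under members is not detectable from these lists.

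**Figure D1:**
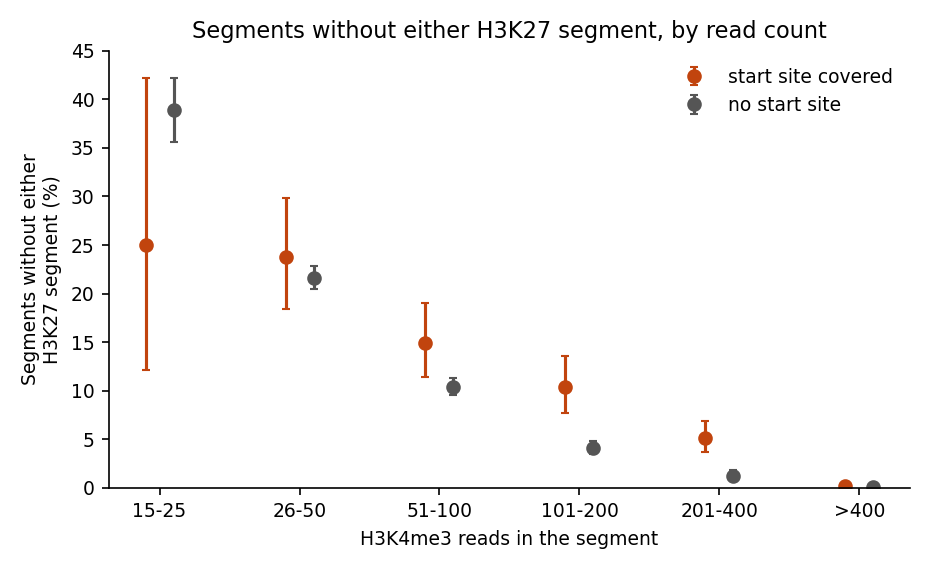
Share of H3K4me3 segments without either H3K27 segment (vertical axis, %) by H3K4me3 read count (horizontal axis), for segments that cover a start site and those that do not; bars are exact 95% intervals. At 201 to 400 reads the share was 5.08% of start-site segments and 1.25% of the others.

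Most members lay away from known starts of genes. A RefSeq start site was covered by 213 members (9.59%, interval 8.40 to 10.9), against 32.2% of all H3K4me3 segments, 32% of acetylation-like and 39.5% of Polycomb-like ones. Within 1000 bp of an end of a coding gene lay 297 members (13.4%, against 37.0% of all segments), and 1167 (52.6%, against 69.9%) overlapped a coding gene's span. Start sites on chromosome 18, where 72 members lie, were not used here, so segments of every class there count as without one. Start-site members had a median fold of 6.75 and a median of 85 reads, against 2.95 and 39 reads in the 2007 members without a start site. Of the start-site members 97 also had an H3K4me1 segment, as had 1527 of the others.

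At like read counts members covered start sites more often than acetylation-like segments and, up to 200 reads, less often than Polycomb-like ones. Members with 101 to 200 reads covered a start site in 26% of cases (47 of 181, interval 19.7 to 33.0), against 6.51% of acetylation-like segments (202 of 3104) and 48.1% of Polycomb-like ones. At 201 to 400 reads the shares were 60.0% of members (39 of 65, interval 47.1 to 72.0), 19.2% of acetylation-like and 62.8% of Polycomb-like segments. The share was higher in members than in acetylation-like segments in all 6 read bins, and the intervals overlapped at 15 to 25 reads and above 400. At 201 to 400 reads most members and most Polycomb-like segments covered a start site, and most acetylation-like segments did not. By width the order was not the same throughout. Up to 1000 bp members were above acetylation-like segments (4.28% against 0.916% at 200 to 600 bp, 7.24% against 1.81% at 800 to 1000 bp), at 1200 to 2000 bp the intervals overlapped (16.0% against 13.0%), and above 2000 bp members were below them (21.7%, interval 10.9 to 36.4, against 52.4%). The bins of read count and width were chosen after the shares were seen.

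The deepest start-site member, over the start of Gm40371 with 976 reads, had a high control and is described with the widest members below. The next start-site members by read count lay at Gpt2, Dolpp1, Aktip, Tlr6, Slc46a3, Nhsl1, Bpnt1 and Pcdh18. Gpt2, which encodes mitochondrial alanine transaminase, held 536 H3K4me3 reads against 44 control reads in its segment at chr8:85491601-85493800 (mm10), a fold of 18.7. Its H3K4me1 segment had a fold of 2.08 and its Rbpj peak a fold of 6.97, and the nearest acetylation-like segment was 14400 bp away. Dolpp1, a phosphatase of the dolichol cycle of protein glycosylation, held 523 reads against 65 (fold 12.3), with an Rbpj peak of fold 5.17 and no H3K4me1 segment. Aktip, of the AKT-interacting FTS and Hook complex, held 512 reads against 89 (fold 8.83), with no Rbpj peak. Deep H3K4me3 thus occurred in members with and without Rbpj and with and without H3K4me1.

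Tlr6, a toll-like receptor for microbial lipopeptides, held 511 reads against 57 (fold 13.8) at chr5:64958601-64960200, with an Rbpj peak of fold 6.64. Slc46a3, a lysosomal transporter, held 475 against 52 (fold 14.0) with an H3K4me1 fold of 3.8. Bpnt1, a nucleotidase that clears adenosine bisphosphate, held 449 against 58 (fold 11.9) with an Rbpj peak of fold 10.6, and had an acetylation-like segment 1000 bp away. Pcdh18, a protocadherin, held 437 against 38 (fold 17.6), and the nearest acetylation-like segment was 78800 bp away. Nhsl1, a relative of the NHS actin regulator, held 474 against 84 (fold 8.66) over 2800 bp at an internal start site, 62091 bp from the nearer end of the gene. None of these 8 promoters had an HA-Zmiz1 peak, while the deeper member over Gm40371 did.

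**Figure D2:**
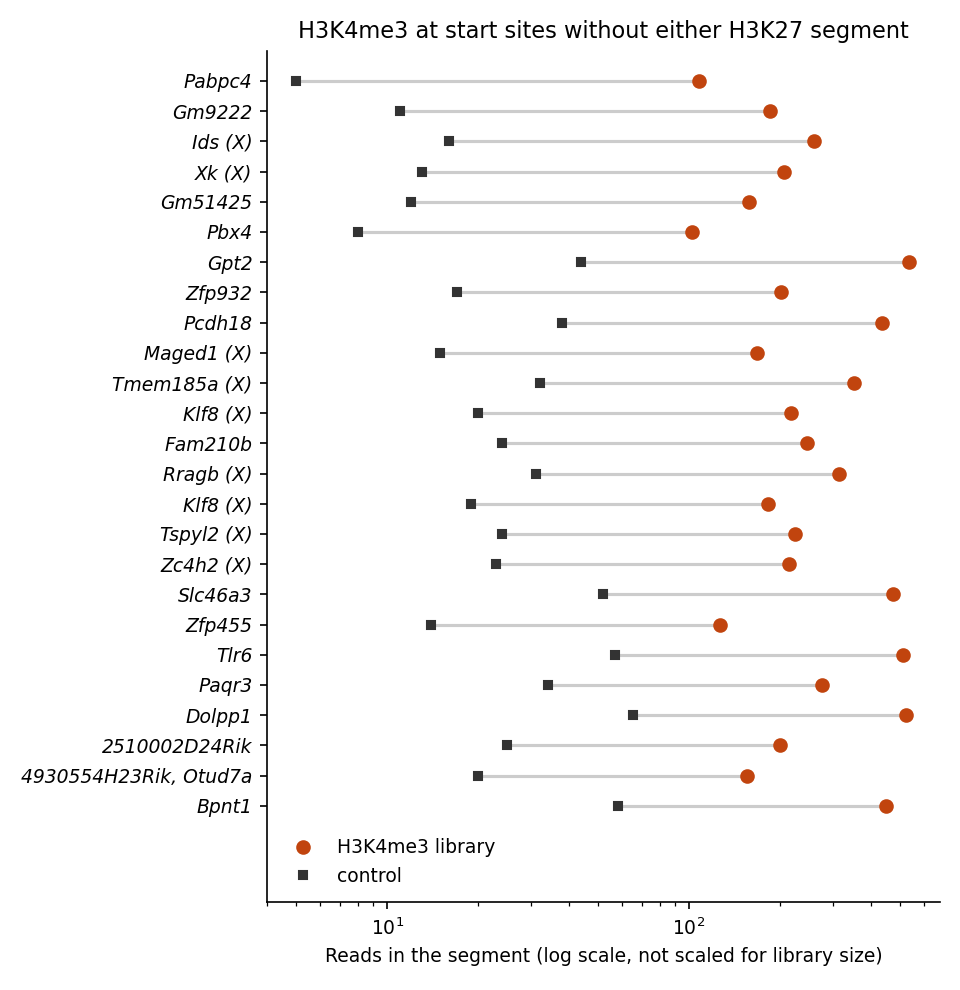
H3K4me3 reads and control reads (horizontal axis, log scale, raw reads) for the 25 members over a start site with the highest fold among those with over 100 H3K4me3 reads, in order of fold, each named by the gene whose start it covers. H3K4me3 reads ran from 102 to 536 and control reads from 5 to 65, and 9 of the 25 were on chromosome X, marked (X).

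The highest folds belonged to members with almost no control reads. The control held 0 reads in 6 members, of 7 such segments in the whole list. Set against a floor of 3 control reads per segment, the member 1874 bp from Gm40363 (33 reads) was at least 16.9-fold above the control, and that near Gm19802 (28 reads, with an Rbpj peak) at least 14.3-fold. Those within Zfp772 (23 reads), near Arnt (22), near Dlat (19) and within Zfp955a (16) were at least 11.8-, 11.2-, 9.72- and 8.18-fold above it. A segment 20234 bp from Vmn2r82 held 103 reads against 2 in the control, and 1 near Samd9l held 58 against 2. The others among the 15 highest folds were near or within Sp100 (37 against 1), Diaph2 (32 against 1), Gm3417 (27 against 1), Srp54c (26 against 1), Ero1b (51 against 2), Ccdc66 (49 against 2) and Rnaset2a (70 against 3). Several of these loci, such as Srp54c, Rnaset2a, Sp100 and the Zfp genes, belong to families of closely similar copies, and the lists were made from uniquely mapped reads per the deposited names, so their counts are uncertain. Whether low control coverage sets these folds was not tested.

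The widest member was also the deepest and stood apart in its control. It ran over chr6:47646601-47651800, 1100 bp from Gm40369 and over the start of Gm40371, and held 976 H3K4me3 reads against 504 control reads, a fold of 2.97. Its control density of 96.9 reads per kb compares with a median of 23.5 over members. It carried peaks of Rbpj (fold 7.55), HA-Zmiz1 (5.0) and Flag-Zmiz1 (7.06), and it was the 1 start-site member with an HA-Zmiz1 peak. The other wide members included 3 with weak folds, near Rnf19a (3200 bp, fold 1.78), within Matr3 (3200 bp, fold 1.40) and within Usp7 (3000 bp, fold 1.79). Members within Arid5b, an AT-rich DNA-binding regulator (2800 bp, 247 reads against 48, fold 7.89), within Ppp1r9b (fold 4.17) and over an end of Rundc3a (304 against 73, fold 6.39) were stronger. Near Hs2st1 and Slc16a6 lay 2 more, of 3000 bp (fold 3.05) and 2800 bp (fold 2.79).

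The width limit removed no segment from this class, since all 243 segments over 10000 bp overlapped an H3K27 segment. Just inside it were the members near Gm40369, Rnf19a and Matr3, of 5200, 3200 and 3200 bp. Just outside lay segments of 10200 bp near Ptpn14 (1008 reads), Sh3rf3 (963) and Cdc42se2 (702), each with an acetylation-like segment. On the other limit, 58 members touched an H3K27 segment without a shared base, and 118 segments left out shared only 200 bp with one. The median distance of a member to the nearest acetylation-like segment was 15900 bp and to the nearest Polycomb-like segment 32200 bp, and 313 members (14.1%) had either within 1000 bp.

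Chromosome X stood out for its members. On X 83 of 594 H3K4me3 segments up to 10000 bp were members (14.0%, interval 11.3 to 17.0), against 8.24% on the autosomes (2137 of 25927, interval 7.91 to 8.58), where single chromosomes ran from 6.97% on chromosome 11 to 10.4% on chromosome 3. Of all H3K4me3 segments 2.22% were on X. Among segments over a start site the share was 9.16% on X (24 of 262, interval 5.96 to 13.3) and 2.30% on autosomes (189 of 8218, interval 1.99 to 2.65). The intervals did not overlap in either case. Control reads per kb had a median of 14.4 over X segments and 26.9 over autosomal ones. The part of the lower control density in these differences was not tested. By read count, members made up 0 of 2 X start-site segments at 15 to 25 reads, against 9 of 34 on autosomes, 2 of 4 at 26 to 50, against 52 of 223, and 11 of 16 at 51 to 100, against 43 of 345. They made up 3 of 9 on X at 101 to 200 reads, against 44 of 445, 8 of 53 at 201 to 400, against 31 of 714, and 0 of 178 above 400, against 10 of 6457. The observed share was thus higher on X from 26 to 400 reads, while most X start-site segments held over 400 reads and were not members. At 26 to 50 and 101 to 200 reads X had only 4 and 9 such segments. No intervals were computed for these bins.

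**Figure D3:**
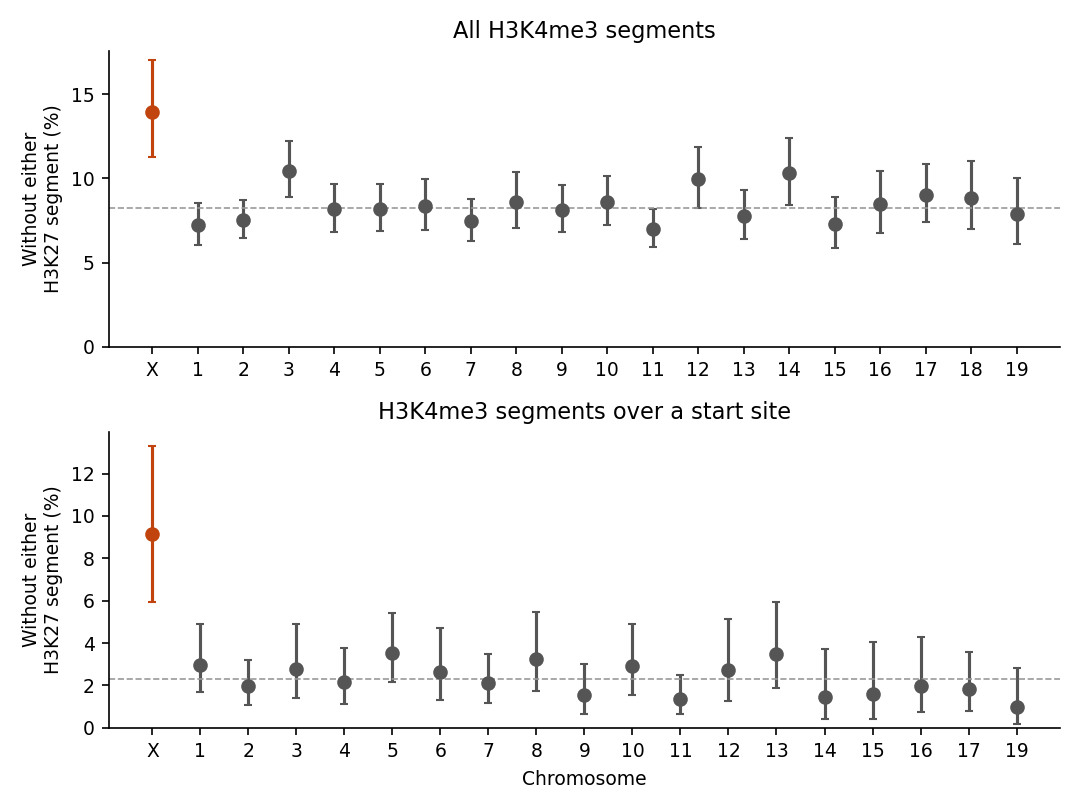
Share of H3K4me3 segments without either H3K27 segment (vertical axis, %) on X and on each autosome, over all segments up to 10000 bp and over those that cover a start site, with exact 95% intervals; the dashed line is the share over all autosomes. X is the highest point in both panels, at 14.0% and 9.16%, and chromosome 18 has no point in the lower panel because its start sites were not used.

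The X-linked start-site members had high folds, few control reads and almost no H3K4me1. Their median fold was 14.5, against 6.14 in the 189 autosomal start-site members, their median read count was 84, against 85, and their median control density was 10.4 reads per kb, against 21.7, whose part in the fold was not tested. H3K4me1 segments overlapped 1 of the 24 (4.17%, interval 0.105 to 21.1), against 50.8% of the autosomal ones (interval 43.4 to 58.1). Both traits were seen on X in the other classes too. H3K4me1 was at 56.4% of acetylation-like start-site segments on X, against 97.3% on autosomes, and at 0 of 8 Polycomb-like ones on X, against 53.6%. Median folds there were 20.1 on X against 14.7 for acetylation-like and 8.02 against 6.36 for Polycomb-like start-site segments. X-linked genes were chosen for naming after their values were seen. Ids, the lysosomal iduronate 2-sulfatase, held 259 reads against 16 in the control (fold 24.8), and Xk, the membrane protein linked to the Kell blood group antigen, 207 against 13 (fold 24.4). Rragb, a Rag GTPase of amino-acid sensing upstream of mTORC1, held 313 against 31 (fold 15.5), and Tmem185a 351 against 32 (fold 16.8), both with an Rbpj peak (folds 9.11 and 9.72).

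Klf8, a Krüppel-like transcription factor, had 2 members at separate start sites, with 217 reads against 20 (fold 16.6) and 182 against 19 (fold 14.7). Maged1, a MAGE-family protein, held 168 against 15 (fold 17.2), Tspyl2, a nucleosome-assembly-like protein, 224 against 24 (fold 14.3), and Zc4h2, a zinc-finger protein of neural development, 214 against 23 (fold 14.3). The Zc4h2 member was the only X start-site member with an H3K4me1 segment, of fold 2.86. Lower read counts were found at Diaph2, Xlr4b, Pwwp3b, Tmsb15b1, AA414768, Dach2 and Tceal1, from 32 to 85 reads against 1 to 9 in the control. Xlr4b and Tmsb15b1 have near-identical neighbours, so reads there may be split between copies. Grpr, Syp, Renbp, Pcyt1b, Rbm41, Dlg3 and Akap17b made up the rest, with folds from 5.66 to 11.7.

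H3K4me1 was less frequent at members than at acetylation-like segments. An H3K4me1 segment overlapped 1624 members (73.2%, interval 71.3 to 75, against 92.6% of all H3K4me3 segments), 97.7% of acetylation-like segments and 57.1% of Polycomb-like ones. Members were below acetylation-like segments in each of the 6 read bins, for example 76.3% against 98.5% at 26 to 50 reads. The member share was 48.8% among members in the upper 50% of the H3K4me3 list by fold, and 44.3% when the upper 50% of H3K4me1 segments by fold alone were counted. The H3K4me1 segments over members had a median fold of 2.60 and a median width of 3000 bp, against 3.07 and 5600 bp over acetylation-like segments. They covered the member from end to end in 1537 of 1624 cases. Members without a start site and with H3K4me1 were the largest position group, 1527 of 2220 (68.8%), with a median of 41 reads and a median fold of 2.74, and a median distance to the nearest acetylation-like segment of 12200 bp. The 480 with neither a start site nor H3K4me1 had a median fold of 4.12 and lay a median of 31300 bp from one.

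Rbpj, the DNA-binding partner of ICN1, was the factor with peaks at the largest number of members. Rbpj peaks overlapped 356 members (16.0%, interval 14.5 to 17.6, against 48.0% of all H3K4me3 segments), 52.2% of acetylation-like and 21.6% of Polycomb-like segments. Among narrow segments the difference was not seen, with 11.0% of members (interval 8.64 to 13.8) and 8.38% of acetylation-like segments (6.51 to 10.6) at 200 to 600 bp, and 12.2% and 14.0% at 800 to 1000 bp. At 1200 to 2000 bp the shares were 22.5% of members (19.5 to 25.8) and 33.0% of acetylation-like segments (31.9 to 34.1), and above 2000 bp 50% and 75.4%. The peaks themselves were of like strength, with a median MACS fold of 6.35 in members and 6.6 in acetylation-like segments. Start-site members had an Rbpj peak in 25.4% of cases (interval 19.7 to 31.7), against 15% of the other members (13.5 to 16.7). They were also wider (median 1200 against 800 bp) and deeper (median 85 against 39 reads), and the part of width and read count in this difference was not tested.

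Strongest among the Rbpj peaks in members was that of fold 16.0 in the member within Usp12, a deubiquitinase (107 H3K4me3 reads against 60). Next was that within Atf6, a transcription factor of the endoplasmic reticulum stress response, at chr1:170862001-170864000 with 115 reads against 40, where Rbpj had a fold of 14.5 and HA-Zmiz1 a fold of 11.8. Near Naa30, the catalytic subunit of an N-terminal acetyltransferase, Rbpj had a fold of 14.4 and HA-Zmiz1 7.73. Members within Zfp473 (13.9), near the ribosomal protein gene Rpl11 (13.4), within Ttc7b (13.3), near Enc1 (13.2), within the phosphodiesterase gene Pde4b (12.7, with HA-Zmiz1 at 5.55) and within Gm28802 (12.5) followed. Only the tenth, at the start of Fam210b (12.1, with 246 H3K4me3 reads against 24), covered a start site. All 10 of these members had an H3K4me1 segment.

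HA-Zmiz1 was rare at members. Its peaks overlapped 73 of them (3.29%, interval 2.59 to 4.12, against 14.6% of all H3K4me3 segments), 16.5% of acetylation-like and 1.92% of Polycomb-like segments. At 26 to 50 reads the shares were 2.16% of members and 3.55% of acetylation-like segments, with overlapping intervals. At 201 to 400 reads they were 0 of 65 members (interval 0 to 5.52) and 31.1% of acetylation-like segments, and above 400 reads 1 of 11 members and 17.9%. Of the 73 members 71 had H3K4me1, and 1 covered a start site. HA-Zmiz1 was found at 11.0% of members with an Rbpj peak (39 of 356, interval 7.91 to 14.7), against 1.82% of members without (34 of 1864, 1.27 to 2.54). In acetylation-like segments the same shares were 26.3% and 5.93%. Peaks of both factors were more frequent in wider members. From 200 to 600 bp to 1200 to 2000 bp, Rbpj went from 11.0% to 22.5% and HA-Zmiz1 from 0.822% to 6.92%. The part of width in the contrast by Rbpj was not tested, and the 2 factors were profiled in different lines. No factor peak of any list overlapped 1829 members.

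Of the members with the 10 strongest HA-Zmiz1 peaks, 9 lay over 2000 bp from the nearest end of a coding gene. After Atf6 came a peak of fold 11.6 in the member near Gramd3, 10.8 near Mrpl46 (81340 bp away), 10.7 within BC004004 and 9.87 within Edem3, a mannosidase-like protein of glycoprotein quality control. Those near Clec2d (8.69), within Rims1 (8.51), near Olfr724 (8.27), near Pdcl3 (8.17) and within 4933424G06Rik (7.77) completed the 10. Rbpj overlapped 7 of these 10 members and not those of Edem3, Clec2d and Olfr724. H3K4me3 was weak at all 10, from 20 to 115 reads and folds of 1.98 to 6.90.

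ICN1 was found at 1 member in the HA line (0.0450%, interval 0.00114 to 0.251, against 1.30% of all H3K4me3 segments) and at 0 in the Flag line (upper limit 0.166%, against 0.123%). The single member lay within Ttc7b at chr12:100441801-100443400 with 118 H3K4me3 reads against 54, an H3K4me1 fold of 3.32, and folds of 6.30 for ICN1, 13.3 for Rbpj and 7.08 for HA-Zmiz1. The 3 summits were at positions 100442359, 100442351 and 100442372. Flag-Zmiz1 peaks overlapped 3 members (0.135%, against 0.142% of all segments), near Trim71 (fold 9.20), near Gm40369 (7.06) and at an end of Gabrd (5.95). Those shares rest on so few peaks that no difference from the background was detectable for Flag-Zmiz1 or Flag-line ICN1.

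**Figure D4:**
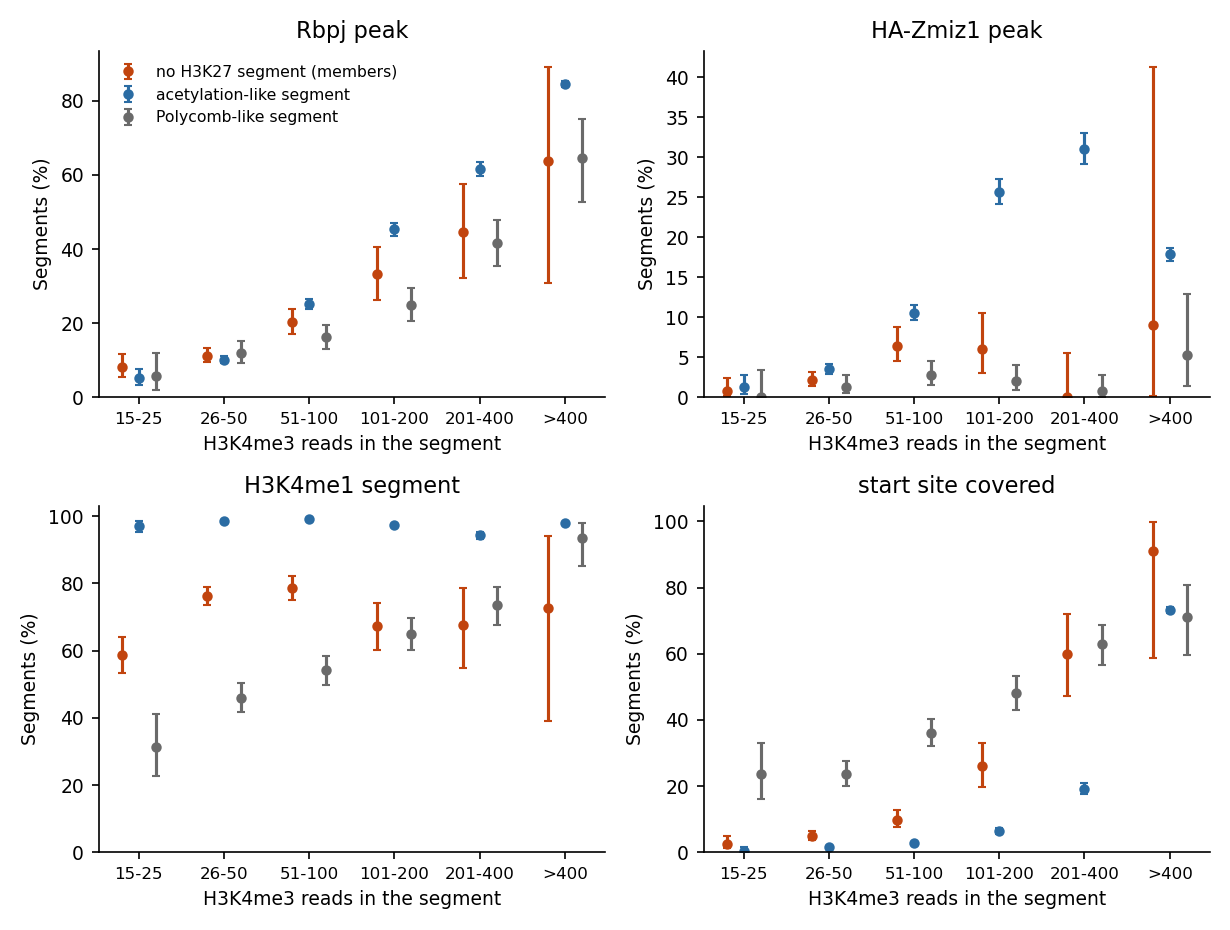
Share of segments (vertical axes, %) with an Rbpj peak, an HA-Zmiz1 peak, an H3K4me1 segment or a covered start site, by H3K4me3 read count (horizontal axes), for segments without an H3K27 segment, with an acetylation-like one alone and with a Polycomb-like one alone; bars are exact 95% intervals. At 101 to 200 reads members stood at 6.08% for HA-Zmiz1 and acetylation-like segments at 25.7%, while for start sites members stood at 26% and acetylation-like segments at 6.51%.

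Few genes of the 9 lists lay at members, and too few to set against the background. Of their 197 genes 1 had a member within 1000 bp of an end, against 1.54% of all coding genes (337 of 21887). It was Eef1a1, a translation elongation factor on the housekeeping list, with 62 reads against 60 (fold 1.59), and an acetylation-like segment also lay at the gene. None of the 25 T-cell receptor and surface genes, 26 Notch targets and pathway genes, 30 developmental regulators, 30 meiosis and germline genes, 25 neuronal genes, 20 imprinted genes, 12 B-cell genes and 12 myeloid genes had one. Of the 26 genes of the Notch list 8 had an acetylation-like, 7 a Polycomb-like and 4 a doubly marked segment there, 1 a segment over 10000 bp, and 6 had none. Over all coding genes the shares, in the same order, were 39.7%, 4.06%, 3.98%, 1.01% and 49.7%. Of the 30 genes of the meiosis list 26, and of the 25 of the neuronal list 20, had no H3K4me3 segment within 1000 bp of an end.

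Starts of zinc-finger genes named Zfp were found among the members. A start site lay in a member for 11 of 336 such genes (3.27%, or 4.72% of those with any H3K4me3 segment), against 229 of 27025 genes (0.847%, or 2.25%). The exact intervals of the shares over all genes, 1.65 to 5.78% and 0.742 to 0.964%, did not overlap. Those shares include genes with no H3K4me3 segment at a start site, 103 of the 336 Zfp genes and 16829 of the 27025. No interval was computed for the shares among genes with a segment, so a difference between 4.72% and 2.25% is not established. This family was looked at after its values were seen. Most encode DNA-binding repressors with arrays of zinc fingers. Zfp932 held 201 reads against 17 in the control (fold 18.1), Zfp455 127 against 14 (fold 13.9), Zfp109 133 against 26 (fold 7.85), Zfp658 120 against 31 (fold 5.94) and Zfp786 360 against 68 (fold 8.12). Folds of the rest, Zfp808, Zfp418, Zfp429, Zfp119b, Zfp273 and Zfp595, ran from 4.31 to 11.0. None of the 11 had an HA-Zmiz1 peak, and Rbpj peaks were at Zfp786 (fold 4.11) and Zfp429 (5.46). Among 1267 odorant and vomeronasal receptor genes 1 had a member at its start, Olfr371, with 33 reads against 23.

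Promoters in members had intermediate CpG content. In the 193 coding promoters whose start site lay in a member, CpG observed/expected had a median of 0.593 (quartiles 0.390 and 0.763), against 0.805 in acetylation-like segments, 0.750 in Polycomb-like ones and 0.253 in coding promoters with no H3K4me3 segment. A ratio of 0.6 or more was reached by 48.7% of member promoters, 80.0% of acetylation-like and 77.2% of Polycomb-like ones. Among segments of up to 100 reads the median was 0.511 in members, 0.264 in acetylation-like and 0.735 in Polycomb-like segments, and at 101 to 400 reads it was 0.678, 0.555 and 0.754. Above 400 reads it was 0.778 in the 11 member promoters and 0.818 in acetylation-like ones. Members thus stood below acetylation-like promoters in total and above them at up to 400 reads.

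**Figure D5:**
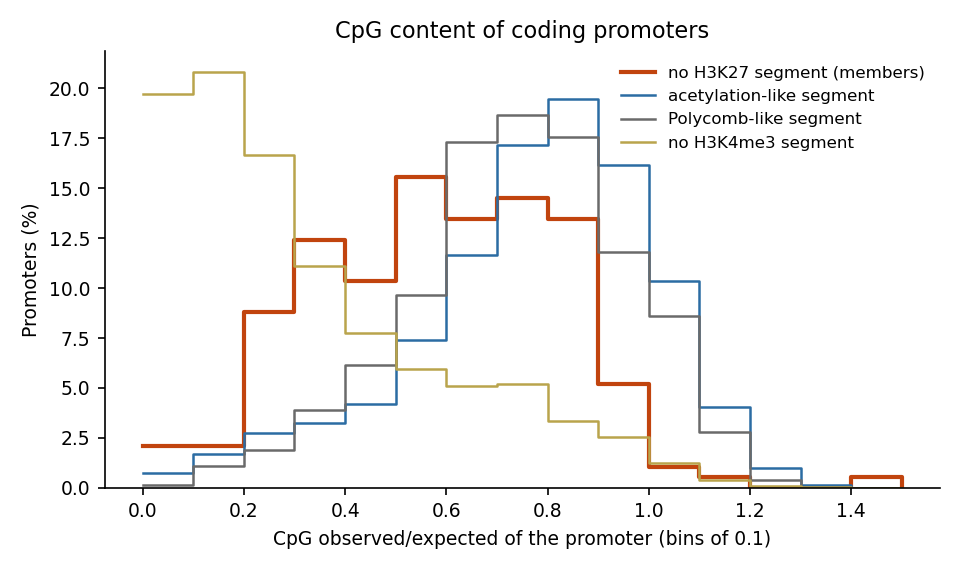
Distribution of CpG observed/expected (horizontal axis, bins of 0.1) over coding promoters (vertical axis, % of the promoters of a class) by the H3K4me3 segment over the start site. Member promoters, with a median of 0.593, lie between promoters with no H3K4me3 segment (0.253) and those in acetylation-like segments (0.805).

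Short sequence motifs were counted in the same windows on both strands. TGGGAA, the core of the Rbpj site, was in 28.5% of member promoters, against 24.5% of all 21263 coding promoters. It was in 30% of the 50 member promoters with an Rbpj peak and in 28.0% of the 143 without. GGGCGG, the GC box, was in 60.1% of member promoters, against 67.1% of acetylation-like, 75.8% of Polycomb-like and 46.2% of all promoters. TATAAA was in 8.29% of member promoters, against 5.70% of acetylation-like, 6.44% of Polycomb-like and 12.6% of all. Coding promoters with no H3K4me3 segment, which are part of all promoters, held TATAAA in 19% and GGGCGG in 25.5% of cases. For both motifs members lay between these and the acetylation-like and Polycomb-like classes. They did not lie between these and promoters in segments over 10000 bp, which held TATAAA in 9.86% and GGGCGG in 58.2%. CCGGAAG, an Ets-type site, was in 8.29% of member promoters, 23.3% of acetylation-like, 6.44% of Polycomb-like and 11.6% of all promoters. GGGCGG and CCGGAAG each hold a CpG, and the part of CpG content in their shares was not tested. Of the printed promoters Xk, Gpt2 and Fam210b hold GGGCGG and none holds TGGGAA.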

How the data were processed

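The study deposited 1 library per target. Per the submitters' processing notes, reads were processed with Bowtie 0.12.7, MACS2 2.0.10 and SICER 1.1 on the mm10 build. Per the file headers, MACS 2.0.10.20120913 called factor peaks at a p limit of 1e-05, with the line's own input as control. Each deposited peak has a pileup signal, a fold (ratio) over local background and a −log10 p, and each deposited segment has read counts for ChIP and control, a fold (ratio), a false discovery rate and a p-value, all made by the authors. Library totals of the histone samples are not given in the sources used here, and the deposited H3K4me3 folds imply a control total 1.53 times that of the ChIP.

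Overlaps of at least 1 bp were computed in Python 3.11.15 with pandas 2.3.3, and exact 95% intervals with SciPy 1.17.1. The interval code was tested on simulated data. Start sites and promoter windows came from RefSeq (GRCm38.p6, 32851 sites) and gene spans of 21887 coding genes from the same build. Strand was used for promoters only. Nearest genes go by the nearer end of the span. Segments with 0 control reads were set against a floor of 3 counts. Members, lists and tests were chosen with earlier results of these data known. Genes were named by rank: the 15 highest folds, 10 deepest, 10 widest, 10 strongest Rbpj and HA-Zmiz1 peaks, all ICN1 members, list genes and 3 members either side of the width limit. X, Zfp, start-site and Flag-Zmiz1 members were named after their values were seen.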

Additional observations from a re-analysis of the deposited data

How the results depend on the processing

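Of 64 alternatives to the values above, 42 left the value inside its interval, or within 1.5 times for counts, and 22 moved it. The count of 2220 members became 8079 with only the upper 50% of each H3K27 list by fold, 4097 with the acetylation-like list alone and 996 at a false discovery rate of 1e-10 or less. At that rate the Rbpj share was 21.5%, the H3K4me1 share 65.1%, the gene-end share 21.3% and the median fold 4.85. Among members in the upper 50% of H3K4me3 by fold, Rbpj was at 19.9%, HA-Zmiz1 at 0.537%, HA-line ICN1 at 0%, H3K4me1 at 48.8% and gene ends at 32.7%. Peaks with −log10 p of 10 or more gave 8.06% for Rbpj, 1.35% for HA-Zmiz1 and 0% for HA-line ICN1. With no H3K27 segment within 1000 bp H3K4me1 was at 71.2%, and with the upper 50% of H3K4me1 segments at 44.3%. The gene-end share was 9.14% at 0 bp, 30% at 5000 bp and 22.0% with all genes of the table. List genes with a member numbered 0 at 0 bp and 6 at 5000 bp. Leaving out X moved none of the 10 values it was run on, and for 8 of these it was added after seeing the data. The cause of these shifts was not tested. No paired analysis was possible because each target was deposited as 1 library per line. Leaving out a replicate was not possible for the same reason. Depth limits the absence of H3K27 segments, since a weak mark under a member gives no segment.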

Other observations

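Small RNA genes were covered by few members. Genes for transfer RNAs lay in 4 members, at n-TLcag10 (513 H3K4me3 reads against 65 in the control, fold 12.1), n-TVtac3 on X (179 against 21, fold 13.1), n-TEctc9 (97 against 28, fold 5.31) and n-TFgaa6 (86 against 55, fold 2.40). The first of these members was among the 10 deepest and lay 1983 bp from Btn1a1, a butyrophilin. The share of members with a transfer RNA gene was 0.180% (interval 0.0491 to 0.461), against 0.350% of acetylation-like and 1.92% of Polycomb-like segments. MicroRNA genes Mir6924 (70 against 23) and Mir713 (54 against 9) lay in 1 member each, as did receptor V segments Ighv1-79 (54 against 38) and Trav4-3 (20 against 4). An end of a long non-coding RNA gene was covered by 79 members (3.56%), against 7.97% of acetylation-like segments.

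Members were spread thinly. The fullest 1 Mb window held 8, on chromosome 10 from 19000001 to 20000000, with a median fold of 2.89. A window on chromosome 13 from 67000001 to 68000000 held 6 with a median fold of 8.26, and 5 of its genes, Rsl1, Zfp273, Zfp429, Zfp455 and Zfp595, have a start site in a member. These windows were singled out after their values were seen, and the genes there are related zinc-finger genes whose reads may be split between copies.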
